A study of Mus musculus with 6 samples.

Results

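The G1 cyclins and the inhibitors of cyclin-dependent kinases (CDKs) were followed in 6 Affymetrix mouse genome arrays. The set was 10 genes, Ccnd1, Ccnd2, Ccnd3, Ccne1, Ccne2, Cdkn1a, Cdkn1b, Cdkn2b, Cdkn2c and Cdkn2d, out of 18193 genes with a probe set annotated to 1 symbol. They were chosen by name, as genes that govern the step at which male germ cells arrest in the fetal testis, and every probe set annotated to one of them was kept apart. The choice was made with earlier results of these data known, so the shares called below describe the set and do not test it. This gave 23 probe sets. Of these, 22 exceeded the median of their array on 2 or more arrays and were tested, among 24713 tested in all. No probe set that carries several symbols named a member, and 0 of the 10 genes lie on chromosome 19 in the RefSeq annotation (GRCm38.p6).

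The arrays compared 129/Sv mice with the consomic strain 129.MOLF-Chr19, an otherwise 129 strain whose chromosome 19 comes from MOLF. Each strain gave a pool of male genital ridges (testis) at embryonic stage E13.5, a pool of testes at postnatal day 1 (PN1) and a pool of whole male embryos at E13.5. In each strain 20 testis pairs were pooled at E13.5 and 3 whole embryos; at PN1, 12 pairs were pooled for 129/Sv and 25 for 129.MOLF-Chr19. The study asked which genes differ in 129.MOLF-Chr19, a strain prone to testicular germ cell tumors, at the ages when germ cells turn into embryonal carcinoma cells, with the embryo to tell gonadal differences from general ones. Each of the 6 groups had 1 array, so the number of arrays limits the precision. RNA came from whole organs, in which germ cells are a minority, and the submitters state that PN1 testes of 129.MOLF-Chr19 hold embryonal carcinoma cells beside germ cells. In such samples fewer cells of a type and less RNA per cell cannot be told apart.

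Array medians ran from 220.5 to 250.7 intensity units, and the floor below which values were not ordered ran from 107.4 to 125.3. The 3 prime to 5 prime ratio of the Gapdh control was 0.895 to 0.966 on the 6 arrays. That of Actb was 1.84 on the 129.MOLF-Chr19 PN1 testis array and 1.09 to 1.19 on the others. The markers followed the labelled tissues. Summed intensity of 6 Sertoli cell markers was 7056 and 7469 in the E13.5 testes, 15774 and 15112 in the PN1 testes and 2735 and 2335 in the embryos (129/Sv first). Germ cell markers, 8 of 9 on the array, summed to 10454 and 8640, 6309 and 4641, and 1394 and 1197 in the same order. Liver markers summed to 18229 and 15639 in the embryos and to at most 1197 in the testes.

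D cyclins bind CDK4 and CDK6 in response to growth signals and begin the phosphorylation of the retinoblastoma protein, which then releases E2F transcription factors. E cyclins, themselves E2F targets, bind CDK2 and complete the step into S phase. The inhibitors form 2 families: the Cip/Kip proteins p21 (Cdkn1a) and p27 (Cdkn1b) bind cyclin and CDK complexes, while the INK4 proteins p15 (Cdkn2b), p18 (Cdkn2c) and p19 (Cdkn2d) bind CDK4 and CDK6 alone. In the mouse fetal testis, germ cells stop dividing soon after sex determination and stay arrested in G1 until after birth, whereas Sertoli cells go on dividing in fetal and neonatal life.

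Ccnd1, which encodes cyclin D1, was the member with the largest called differences between the ages in the fit over both strains. Its 3 probe sets were 2.75- to 5.41-fold lower in PN1 testis than in E13.5 testis, in both strains alike. Intensities are given as deposited, in the order 129/Sv and 129.MOLF-Chr19. Probe set 1417420_at read 2007 and 1954 in E13.5 testis, 640.6 and 619.3 in PN1 testis and 3186 and 2706 in the embryo. Probe set 1448698_at read 992.9 and 1052, 386.5 and 353, and 1572 and 1946 in the same tissues. Probe set 1417419_at read 1445 and 1294, 254 and 248.6, and 1525 and 1526. On all 3 probe sets both PN1 arrays lay below both E13.5 testis arrays, and the E13.5 testis arrays lay below the embryo arrays. Tissue differences were tested with limma on log2 intensity, with strain as a block and Benjamini-Hochberg adjustment over all probe sets. A probe set was called at an adjusted p under 0.05, which 9.43% of all probe sets tested met as lower in PN1 than in E13.5 testis and 3.14% as higher. The log2 difference between PN1 and E13.5 testis was -1.64 (SE 0.125, adjusted p = 0.00121) for 1417420_at. For 1448698_at it was -1.46 (SE 0.160, adjusted p = 0.00419), and for 1417419_at -2.43 (SE 0.125, adjusted p = 0.000296). Within the strains these differences were -1.58, -1.29 and -2.44 in 129/Sv and -1.71, -1.63 and -2.43 in 129.MOLF-Chr19. Only 1417419_at kept its call whichever testis array was left out. Without the 129.MOLF-Chr19 E13.5 testis array the adjusted p of 1417420_at was 0.0559, and that of 1448698_at was 0.0926 and 0.102 without the 129/Sv or the 129.MOLF-Chr19 E13.5 testis array, at differences of -1.49 and -1.42.

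Other measures moved with age in the same arrays. Sertoli markers summed to 7056 to 7469 at E13.5 and 15112 to 15774 at PN1, with 6 of 6 above the array median on each array. Much of this rise was Inha, which read 761.5 and 864.8 at E13.5 and 7424 and 7771 at PN1 (129/Sv first). Amh, Dhh and Gata4 were also higher at PN1 in both strains, whereas Sox9 and Wt1 were lower in both. Leydig markers, 4 of 5 on the array, summed to 4215 to 5229 at E13.5 and 8522 to 8659 at PN1. Germ cell markers summed to 8640 to 10454 with 7 of 8 above the median at E13.5, and to 4641 to 6309 with 5 and 7 above it at PN1. The list was mixed: Dazl, Dppa3, Pou5f1 and Dnd1 were lower at PN1 in both strains, and Mael, Ddx4, Dnmt3l and Tdrd1 higher. Erythroid markers summed to 14298 to 17087 at E13.5 and to 1110 to 1299 at PN1. No marker was at the floor on all arrays, and the part of these shifts in the Ccnd1 result was not tested.

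Against the embryo, Ccnd1 was lower in PN1 testis by 2.13, 2.15 and 2.51 on the log2 scale for 1417420_at, 1448698_at and 1417419_at (limma adjusted p = 0.000128, 0.000339 and 6.55e-05, where 6.48% of all probe sets were called lower). The E13.5 testis itself, for which 4.03% of all probe sets were called lower, was 1.40-fold below the embryo on 1417420_at (log2 -0.48, SE 0.125, limma adjusted p = 0.0415) and 1.61-fold below on 1448698_at (-0.69, SE 0.160, limma adjusted p = 0.0291). Probe set 1417419_at gave -0.08 (95% interval -0.37 to 0.22, limma adjusted p = 0.724). Both of the E13.5 calls were lost when any of the 4 arrays compared was left out, with adjusted p from 0.0701 to 0.289, and 1417420_at also lost its call without strain as a block (0.0711). The order of the Ccnd1 levels was therefore embryo, E13.5 testis and PN1 testis, with the first pair called apart on 2 of 3 probe sets.

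**Figure D1:**
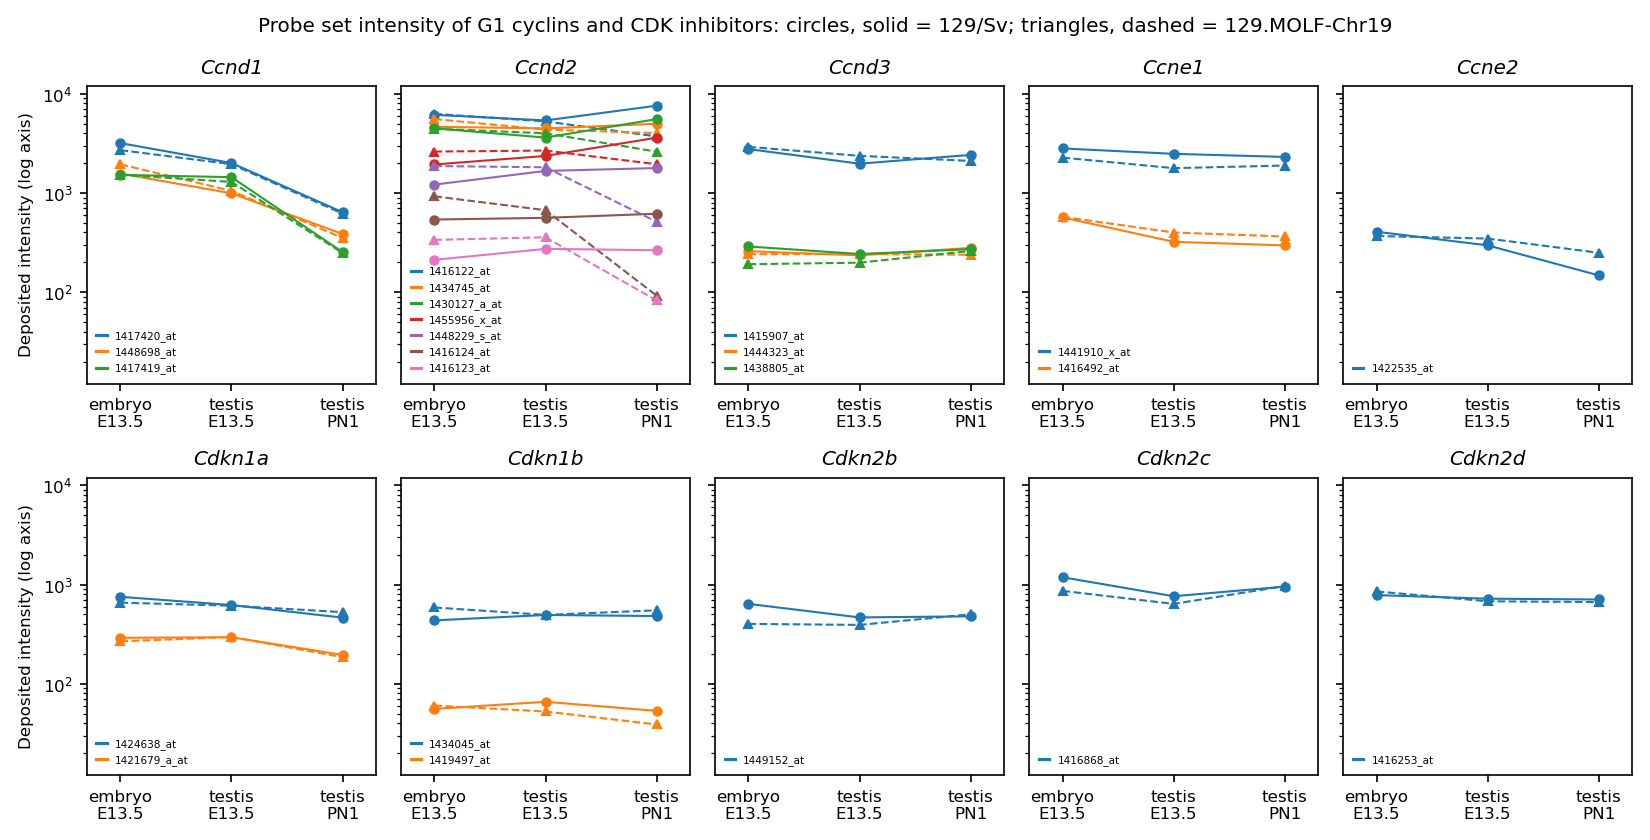
Deposited intensity (vertical log axis) of each of the 23 probe sets of the 10 genes in embryo, E13.5 testis and PN1 testis (horizontal axis), with 129/Sv as circles on solid lines and 129.MOLF-Chr19 as triangles on dashed lines, 1 array per point and each colour a probe set. The 3 Ccnd1 probe sets are lowest in PN1 testis in both strains, while all Ccnd2 probe sets are lower in 129.MOLF-Chr19 than in 129/Sv in PN1 testis.

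Ccnd2 encodes cyclin D2, the D cyclin that gonadal cells such as Sertoli and granulosa cells use widely. No age difference over both strains was called, and the strains lay apart at PN1. Of its 7 probe sets, 1416122_at read 5394 and 5273 in E13.5 testis, 7597 and 3721 in PN1 testis and 6146 and 6286 in the embryo. Probe set 1430127_a_at read 3622 and 4004, 5564 and 2614, and 4492 and 4446. The strains were close in E13.5 testis and embryo, and in PN1 testis 129/Sv held the highest of the 6 values and 129.MOLF-Chr19 the lowest. Probe set 1448229_s_at read 1671 and 1817, 1785 and 513.5, and 1216 and 1872. Probe set 1416124_at read 562.2 and 671.3, 618 and 92.41, and 540.4 and 926.2, and 1416123_at read 273.6 and 358, 265.1 and 82.57, and 212.1 and 336.9. On these 3 the 129/Sv testis arrays differed by 0.02 to 0.21 log2 units between the ages, and the 129.MOLF-Chr19 PN1 array was the lowest of the 6, below the floor of 117.6 for the last pair. The other 2 probe sets, 1434745_at and 1455956_x_at, ranged from 4014 to 5567 and from 1941 to 3615. The x in a probe set name marks probes that may also bind transcripts of other genes, and the s probes shared by several transcripts.

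From E13.5 to PN1 testis, 7 of 7 Ccnd2 probe sets had a higher value in 129/Sv after centring, by 0.02 to 0.69 on the log2 scale; as deposited, without centring, 6 of 7 were higher and 1416123_at was lower. In 129.MOLF-Chr19 7 of 7 had a lower value on both scales, by -0.17 to -2.56, where the largest, that of 1416124_at, and the -1.66 of 1416123_at are lower bounds in size, since their PN1 values lay below the floor. The fitted differences over both strains ran from -1.18 to 0.09, and 0 of 7 were called (limma adjusted p = 0.269 to 0.994). Their standard errors, 0.159 to 0.693, left wide intervals, of -0.64 to 0.65 for 1416122_at and -2.84 to 0.48 for 1416124_at. With a PN1 array left out, the remaining one stands alone for its tissue and is assumed to vary as the other tissues do, which holds for all leave-out fits of a compared tissue. Without the 129/Sv PN1 array 6 of 7 probe sets were called lower, by -0.56 to -2.69, and without the 129.MOLF-Chr19 PN1 array 3 of 7 were called higher, 1416122_at by 0.57, 1430127_a_at by 0.64 and 1455956_x_at by 0.74.

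Between the strains in PN1 testis, Ccnd2 was lower in 129.MOLF-Chr19 on every probe set. The strain difference, 129.MOLF-Chr19 minus 129/Sv, was -1.03 for 1416122_at, -1.09 for 1430127_a_at and -1.80 for 1448229_s_at, which are 2.05-, 2.13- and 3.48-fold; 1.69% of all probe sets were past 2-fold lower. It was at least 5.27-fold for 1416124_at and at least 2.26-fold for 1416123_at, lower bounds because the lower array lay at the floor. Below 2-fold were 1455956_x_at at -0.89 and 1434745_at at -0.32. After centring, the same 7 probe sets were higher in 129.MOLF-Chr19 by 0.08 to 0.50 in E13.5 testis and by 0.07 to 0.86 in the embryo. Centring took out of these differences the shift between array medians (-0.12 in E13.5 testis and -0.09 in the embryo, 129.MOLF-Chr19 minus 129/Sv). As deposited, 5 of 7 were higher and 2 lower in E13.5 testis and 6 higher and 1 lower in the embryo, while in PN1 testis 7 of 7 were lower on both scales. The mean over the 7 was 0.26 in E13.5 testis, -1.24 in PN1 testis, with 2 values at the floor, and 0.48 in the embryo. With 1 array per group there was no test within a tissue, and these differences compare those arrays.

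The probe sets of Ccnd2 shared the direction in PN1 testis but not the size. From the least to the most changed they spanned 2.08 log2 units, with the floor applied. Among 235 genes with at least 5 tested probe sets the median span was 0.72, and 10 genes (4.26%), Ccnd2 among them, spanned as much. All probe sets were lower in 129.MOLF-Chr19 for 20 of those genes (8.51%), and the median difference was at or below that of Ccnd2 (-1.09) for 3, Ccnd2 included. In E13.5 testis the Ccnd2 span was 0.43 and in the embryo 0.79, which 171 and 60 of the 235 genes reached.

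Other values set the 129.MOLF-Chr19 PN1 array apart from its 129/Sv partner. Its Actb 3 prime to 5 prime ratio was 1.84 against 1.19, and its Gapdh ratio 0.916 against 0.895. Embryonal carcinoma markers, 7 of 7 on the array, summed to 3781 with 4 above the array median, against 1335 with 2 above it. The same list summed to 2826 and 2880 in the E13.5 testes and to 2362 and 2497 in the embryos (129/Sv first). In PN1 testis Cer1 differed most in intensity (1076 against 89.4). Otx2, Sox2 and Tdgf1 were also higher, all 3 from 129/Sv values below the floor, as was that of Cer1. Lefty1 and Dnmt3b were higher too, and Nanog (70.67 against 38.82) lay below the floor on both arrays. Peritubular and interstitial markers summed to 11862 against 17543 with 5 of 5 above the median on both. Nr2f2 (557.5 against 3325) and Acta2 (5190 against 7173) differed most in intensity. Tcf21 (2668 against 3362) and Pdgfra (3120 against 3382) were also lower, and Myh11 was higher (326.4 against 302.2). Germ cell markers summed to 4641 with 7 of 8 above the median, against 6309 with 5 above it. Dazl read 695.3 against 2718, and Mael (1586 against 1626) and Dnmt3l (421.3 against 441.3) were slightly lower. Pou5f1 read 453.9 against 176.5, Dppa3, Tdrd1 and Dnd1 were also higher, and Ddx4 was nearly equal (498.9 against 493.6). Sertoli markers summed to 15112 against 15774. Inha, the largest part of both sums, was higher (7771 against 7424), as was Gata4 (2185 against 2076). Amh (871.2 against 1374), Sox9 (1046 against 1451), Wt1 (1461 against 1584) and Dhh (1779 against 1866) were lower. The part of these values in the Ccnd2 difference was not tested.

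**Figure D2:**
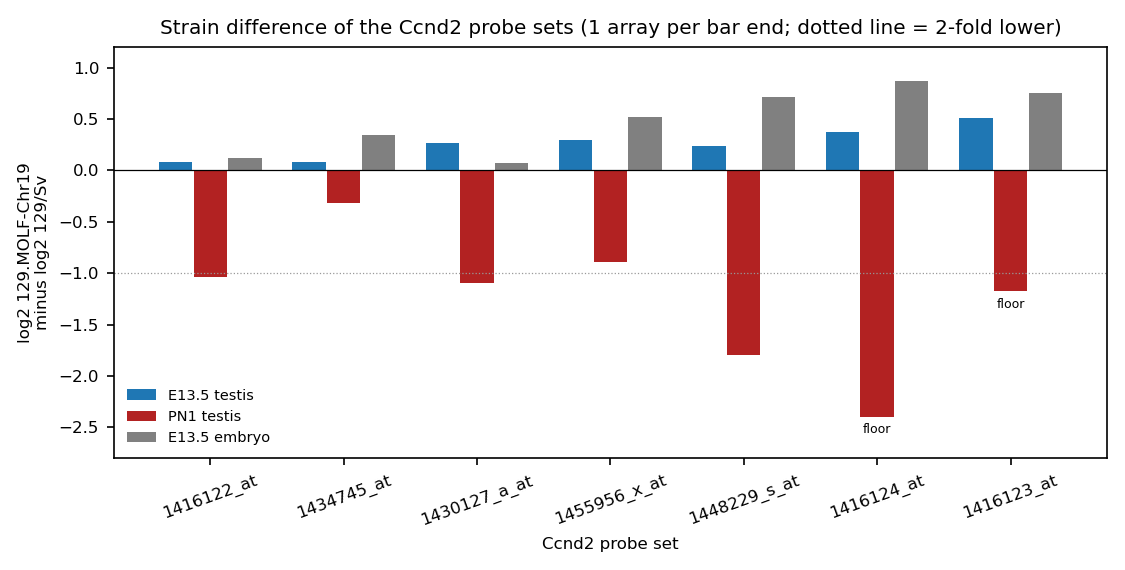
Strain difference (log2 129.MOLF-Chr19 minus log2 129/Sv, vertical axis) of each Ccnd2 probe set (horizontal axis) in E13.5 testis (blue), PN1 testis (red) and E13.5 embryo (grey), 1 array per strain and tissue and so no error bar. All PN1 bars point down, 5 of 7 past the dotted 2-fold line, and all other bars point up after median centring (as deposited 2 of 7 in E13.5 testis and 1 of 7 in the embryo point down); bars marked floor are lower bounds.

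Ccnd3, encoding cyclin D3, was called in no comparison. Its main probe set, 1415907_at, read 1976 and 2371 in E13.5 testis, 2425 and 2108 in PN1 testis and 2775 and 2920 in the embryo. The 2 testis ages overlapped, and both embryo arrays lay above all testis arrays. PN1 minus E13.5 testis was 0.07 (95% interval -0.31 to 0.45, limma adjusted p = 0.811), and E13.5 testis minus embryo was -0.31 (-0.69 to 0.07, limma adjusted p = 0.229). The other pair, 1444323_at and 1438805_at, ranged from 235.2 to 280 and from 191.5 to 289.2, close to the array medians.

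Ccne1 and Ccne2 encode cyclins E1 and E2. Ccne1 was lower in both testis ages than in the embryo on 1 of its 2 probe sets, and did not pass the test between the testis ages. Probe set 1416492_at read 322.3 and 399.9 in E13.5 testis, 296.4 and 364.6 in PN1 testis and 567.6 and 575.4 in the embryo. Probe set 1441910_x_at read 2484 and 1782, 2312 and 1894, and 2817 and 2277. On the first, both embryo arrays lay above all testis arrays and the testis ages overlapped; on the second, the embryo and testis arrays overlapped. The E13.5 testis difference from the embryo was -0.59 for 1416492_at (SE 0.131, limma adjusted p = 0.0259), 1.50-fold, and -0.18 for 1441910_x_at (95% interval -0.46 to 0.09, limma adjusted p = 0.318). The PN1 testis difference from the embryo was -0.71 for 1416492_at (SE 0.131, limma adjusted p = 0.0141). The E13.5 call was lost without any of the 4 arrays (0.0676 to 0.219), without strain as a block (0.0628) and with dim probe sets kept (0.0585), and the PN1 call without the 129/Sv or 129.MOLF-Chr19 embryo array (0.116 and 0.0510).

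The Ccne1 probe sets disagreed on strain. Probe set 1416492_at was higher in 129.MOLF-Chr19 in 3 of 3 tissues, by 0.43, 0.30 and 0.11 in E13.5 testis, PN1 testis and embryo, and 1441910_x_at was lower in 3 of 3, by -0.36, -0.29 and -0.22. Across the tissues these came to 0.28 and -0.29, neither called (limma adjusted p = 0.375 and 0.366). The promoter of Ccne1 is shown because E cyclin genes are textbook targets of E2F. The 250 bases before the start of transcription in RefSeq (GRCm38.p6, chr7:38107491-38107740, minus strand, 5′ to 3′) carry 4 GC boxes, GGGCGG on either strand, in capitals.
Ccne1: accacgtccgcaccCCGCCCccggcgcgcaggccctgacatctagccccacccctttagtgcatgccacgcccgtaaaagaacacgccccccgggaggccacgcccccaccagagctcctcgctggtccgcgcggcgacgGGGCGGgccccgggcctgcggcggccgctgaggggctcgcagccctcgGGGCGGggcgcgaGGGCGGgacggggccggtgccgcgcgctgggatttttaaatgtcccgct
The letters TTTCGCGC, TTTGGCGC, TTTCCCGC and TTTGCCGC, 4 spellings of the E2F site, were searched on both strands and were in 0 of 10 windows of 7 members and in 1.86% of 32851 promoter windows of this length. Only exact matches before the start were searched, so a site with another spelling or past the start would be missed. An E2F spelling can share bases with a GC box. GC boxes were in 7 of 10 member windows and in 32.7% of all. Such matches describe letters only, and the windows of Ccnd1, Ccnd2 and Ccne2 were not analysed here.

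Ccne2, with 1 probe set (1422535_at), read 296.7 and 347.6 in E13.5 testis, 147.8 and 249.8 in PN1 testis and 407.2 and 368.4 in the embryo. Both PN1 values were the lowest. The embryo and E13.5 testis values were apart as deposited, and overlapped once each array was centred on its median, as for every test. PN1 testis was 1.89-fold below the embryo (log2 -0.92, SE 0.197, limma adjusted p = 0.0238). That call was lost without the 129/Sv embryo array (-0.62, 0.157) and with dim probe sets kept (0.0644). The neighbours in the order were not called: PN1 minus E13.5 testis was -0.73 (95% interval -1.20 to -0.26, limma adjusted p = 0.0590), and E13.5 testis minus embryo was -0.19 (-0.66 to 0.28, limma adjusted p = 0.561). Ccne2 was higher in 129.MOLF-Chr19 by 0.35 in E13.5 testis and 0.75 in PN1 testis, and differed by -0.06 in the embryo. The 0.75 rests on a 129/Sv PN1 value of 147.8, below its array median of 228 and near the floor of 117.2.

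Cdkn1a encodes p21, the CDK inhibitor that p53 induces. One of its 2 probe sets fell with age. Probe set 1421679_a_at read 294.2 and 295.5 in E13.5 testis, 195.1 and 185.4 in PN1 testis and 290.2 and 267.6 in the embryo. Probe set 1424638_at read 621.3 and 611.8, 463.6 and 526.8, and 751.7 and 656.1. On both, the PN1 arrays lay below the other 4 and the E13.5 testis arrays close to the embryo. PN1 minus E13.5 testis was -0.62 for 1421679_a_at (SE 0.129, limma adjusted p = 0.0273), 1.54-fold, and -0.31 for 1424638_at (95% interval -0.63 to 0.01, limma adjusted p = 0.187). The call was lost without the 129/Sv E13.5 testis, 129.MOLF-Chr19 E13.5 testis or 129.MOLF-Chr19 PN1 testis array (0.162, 0.312 and 0.0604), with dim probe sets kept (0.0770) and with the 4 testis arrays alone (0.0508). Strain differences lay between -0.11 and 0.18 in all tissues.

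RefSeq gives Cdkn1a 2 windows, shown because a p53 half-site, the best known element of this gene's regulation, was searched in them. Capitals mark p53 half-sites in the upstream window (GRCm38.p6, chr17:29090729-29090978, plus strand) and GC boxes in the downstream one (chr17:29093519-29093768, plus strand), both 5′ to 3′.
Cdkn1a upstream: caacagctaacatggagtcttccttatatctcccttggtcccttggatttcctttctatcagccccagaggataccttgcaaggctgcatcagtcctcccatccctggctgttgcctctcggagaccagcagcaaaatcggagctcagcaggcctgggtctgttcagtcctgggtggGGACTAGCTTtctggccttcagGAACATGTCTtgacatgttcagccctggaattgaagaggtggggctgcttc
Cdkn1a downstream: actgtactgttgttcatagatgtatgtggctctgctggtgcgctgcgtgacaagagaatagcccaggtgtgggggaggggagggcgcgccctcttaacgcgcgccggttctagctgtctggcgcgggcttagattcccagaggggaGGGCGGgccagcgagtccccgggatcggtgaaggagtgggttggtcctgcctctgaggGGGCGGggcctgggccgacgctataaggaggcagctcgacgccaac
The upstream window held 2 half-sites, the downstream one 0 half-sites and 2 GC boxes. An exact p53 half-site was in 2 of 10 member windows, the other being that of Cdkn2d, where it overlaps a GC box, and in 7.13% of all windows. The probe sets do not say which start was used.

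Cdkn1b encodes p27. Its measured probe set, 1434045_at, read 493 and 493.9 in E13.5 testis, 481.2 and 549.7 in PN1 testis and 435.1 and 586.8 in the embryo. The tissues overlapped, and PN1 minus E13.5 testis was 0.07 (95% interval -0.28 to 0.41, limma adjusted p = 0.80). After centring, the value was higher in 129.MOLF-Chr19 in 3 of 3 tissues, by 0.12, 0.19 and 0.52, not called across them (0.28, limma adjusted p = 0.383). As deposited, the E13.5 testis values were nearly equal, and the 0.12 is almost all the shift between array medians. The second probe set, 1419497_at, stayed between 38.78 and 65.69, below the floor on every array, and was not tested.

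Among the INK4 genes no probe set was called in any comparison. Cdkn2c (p18, 1416868_at) came nearest: it read 761.6 and 637.7 in E13.5 testis, 952.8 and 964.5 in PN1 testis and 1184 and 863.1 in the embryo. Both PN1 arrays lay above both E13.5 testis arrays, and the embryo arrays spanned the PN1 values. PN1 minus E13.5 testis was 0.47 (95% interval 0.13 to 0.81, limma adjusted p = 0.0824), called with the 129/Sv PN1 array left out (0.60, 0.0279) and with no other array left out. E13.5 testis minus embryo was -0.45 (-0.79 to -0.11, limma adjusted p = 0.0761). Cdkn2b (p15, 1449152_at) read 465.8 and 391.6, 477.9 and 500.7, and 638.2 and 401. Its PN1 arrays lay just above the E13.5 testis arrays and the embryo strains far apart, with a PN1 minus E13.5 testis difference of 0.20 (-0.21 to 0.62, limma adjusted p = 0.494) and a strain difference of -0.58 in the embryo. Cdkn2d (p19, 1416253_at) read 719.9 and 677.7, 706.6 and 665.3, and 782.4 and 851.5. The testis ages overlapped at -0.02 (-0.34 to 0.30, limma adjusted p = 0.949), and its whole range over the 6 arrays, 0.31 log2 units, was the smallest of the 10 genes by their main probe sets.

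Counted over the set, 4 of 22 probe sets (18.2%) were lower in PN1 than in E13.5 testis and 0 were higher, where 9.43% of all probe sets tested were lower and 3.14% higher. Of the 4 calls, 3 were Ccnd1 and 1 Cdkn1a. The median difference was -0.01 for the set and -0.04 for all probe sets. The lower calls were 2 without the 129/Sv E13.5 testis array and 1 without the 129.MOLF-Chr19 one. Without the 129/Sv PN1 array there were 10 lower calls and 1 higher, and without the 129.MOLF-Chr19 one 4 lower and 3 higher. Calls over all probe sets went from 3106 to 112 and 113 without either E13.5 testis array and to 5325 without the 129/Sv PN1 array. Against the embryo, which shares arrays with the other comparisons, 3 of 22 (13.6%) were lower and 0 higher in E13.5 testis, beside 4.03% lower and 14.0% higher of all, with medians of -0.13 and 0.05. Leaving out any of the 4 arrays compared left 0 calls, and dropping the strain block left 1. In PN1 testis 5 of 22 (22.7%) were lower than in the embryo and 0 higher, beside 6.48% and 9.10% of all, with medians of -0.21 and -0.01. The lower calls were 11 without the 129/Sv PN1 array and 3 without the 129/Sv embryo array. Without the 129.MOLF-Chr19 PN1 array 5 were lower and 4, all Ccnd2, were higher. Since members with several probe sets count several times, these shares describe probe sets, not genes.

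**Figure D3:**
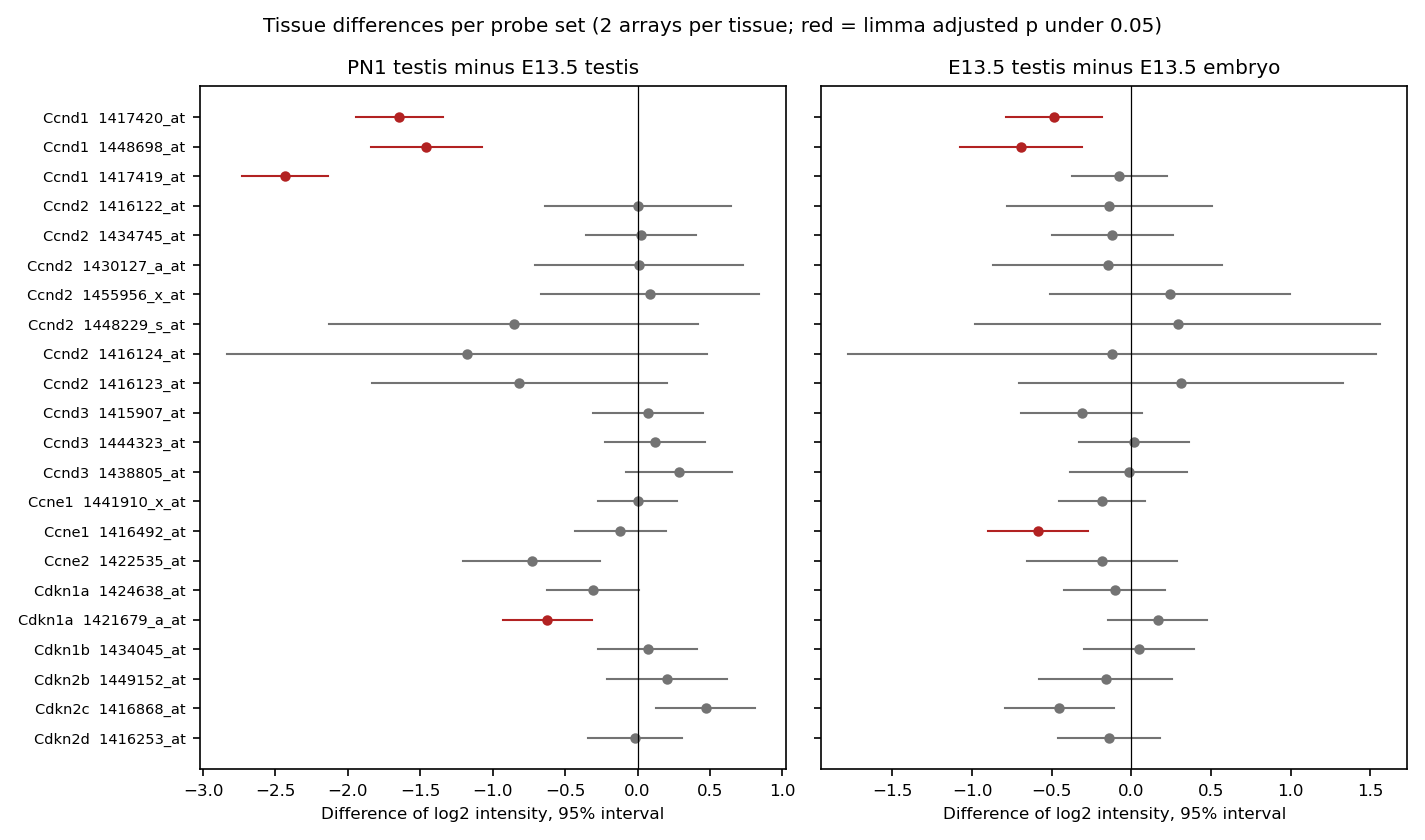
Log2 difference (horizontal axis, points) with its 95% interval (bars) for each of the 22 tested probe sets, PN1 minus E13.5 testis on the left and E13.5 testis minus embryo on the right, from 2 arrays per tissue; red marks a limma adjusted p under 0.05. The 3 Ccnd1 probe sets stand apart on the left at -1.46 to -2.43, and the intervals of 3 Ccnd2 probe sets, 1448229_s_at, 1416124_at and 1416123_at, are the widest.

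Across the 3 tissues 0 of 22 probe sets differed between the strains at an adjusted p under 0.05 (limma), and the 2 with an unadjusted p under 0.05 were those of Ccne1. Of all probe sets tested 3 were called (0.0121%) and 3267 had an unadjusted p under 0.05. Within tissues, a 2-fold strain difference was met by 0 of 22 in E13.5 testis, where 0.169% of all were past it, and by 0 of 22 in the embryo, where 0.349% were. In PN1 testis it was met, as lower, by 5 of 21 (23.8%), all of them Ccnd2, beside 1.69% of all. The median strain difference of the set was 0.12, -0.13 and 0.10 in E13.5 testis, PN1 testis and embryo, and that of all probe sets 0.07, 0.02 and 0.03. Outside Ccnd2 the largest strain differences in PN1 testis were 0.75 for Ccne2 and 0.30 for Ccne1.

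Lists of other cell cycle genes, each gene by its probe set with the highest mean, gave the setting between E13.5 and PN1 testis. Over all 13027 genes in that count 8.54% were lower and 3.40% higher, with a median of -0.03. No list gene was called higher. The list calls rest on the full fit and were not followed with arrays left out. Calls over all probe sets were far fewer without either E13.5 testis array, as given above. Of the kinases, pocket proteins and E2F factors 1 of 17 fell: Cdc25a, the phosphatase that activates CDK2, by -0.54 (SE 0.133, limma adjusted p = 0.0453). Cdk4 and Cdk6, the partners of the D cyclins, gave -0.33 and -0.37 (limma adjusted p = 0.0871 and 0.105), and E2f7, an E2F repressor, -0.43 (0.0680). The median of this list was -0.17.

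Among the other CDK inhibitors 1 of 2 tested fell. Cdkn1c, the third Cip/Kip gene (p57) and an imprinted one, read 5508 and 4495 in E13.5 testis, 2049 and 964.6 in PN1 testis and 7999 and 8840 in the embryo. The tissues did not overlap, and PN1 minus E13.5 testis was -1.82 (SE 0.280, limma adjusted p = 0.0113). In PN1 testis it was lower in 129.MOLF-Chr19 by -1.09. Cdkn3 gave -0.13, and Cdkn2a, the remaining INK4 gene, exceeded the array median on too few arrays to be tested. Of the genes for turnover of G1 regulators and CDK activation 4 of 6 fell, with a median of -0.62. Skp2, the ubiquitin ligase subunit that marks p27 for destruction, read 1659 and 1431, 521.8 and 421.9, and 1017 and 1205, with PN1 lowest and E13.5 testis highest. Its difference was -1.71 (SE 0.176, limma adjusted p = 0.00339). The CDK-activating kinase subunits Cdk7, Mnat1 and Ccnh fell by 0.80, 0.66 and 0.58 on the log2 scale (limma adjusted p = 0.0190, 0.0239 and 0.0313).

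In S phase 7 of 13 genes tested fell (median -0.54), among them Pola1 of DNA polymerase alpha (-0.85, limma adjusted p = 0.00878), the ribonucleotide reductase subunit Rrm2 (-1.10, 0.0235) and the replication licensing factors Cdc6 (-0.69, 0.0211) and Cdt1 (-0.68, 0.0259). In G2 and mitosis 9 of 13 fell (median -0.68), among them Bub1 of the spindle checkpoint (-1.13, 0.00602), Top2a (-0.87, 0.00851), the kinase Plk1 (-0.77, 0.0147) and cyclin F, Ccnf (-0.79, 0.0149). The erythroid marker sum was lower at PN1 on the same arrays, as was the germ cell sum, in which 4 of 8 markers were lower and 4 higher in both strains. The part of these in the counts was not tested. In the list of p53 and its targets 1 of 6 genes tested fell, Trp53inp1 by -0.60 (SE 0.122, limma adjusted p = 0.0261), while Gadd45a, Mdm2 and Zmat3 gave 0.15, -0.16 and 0.15; the list's median was 0.07. Across the strains 0 genes of these 6 lists were called.

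**Figure D4:**
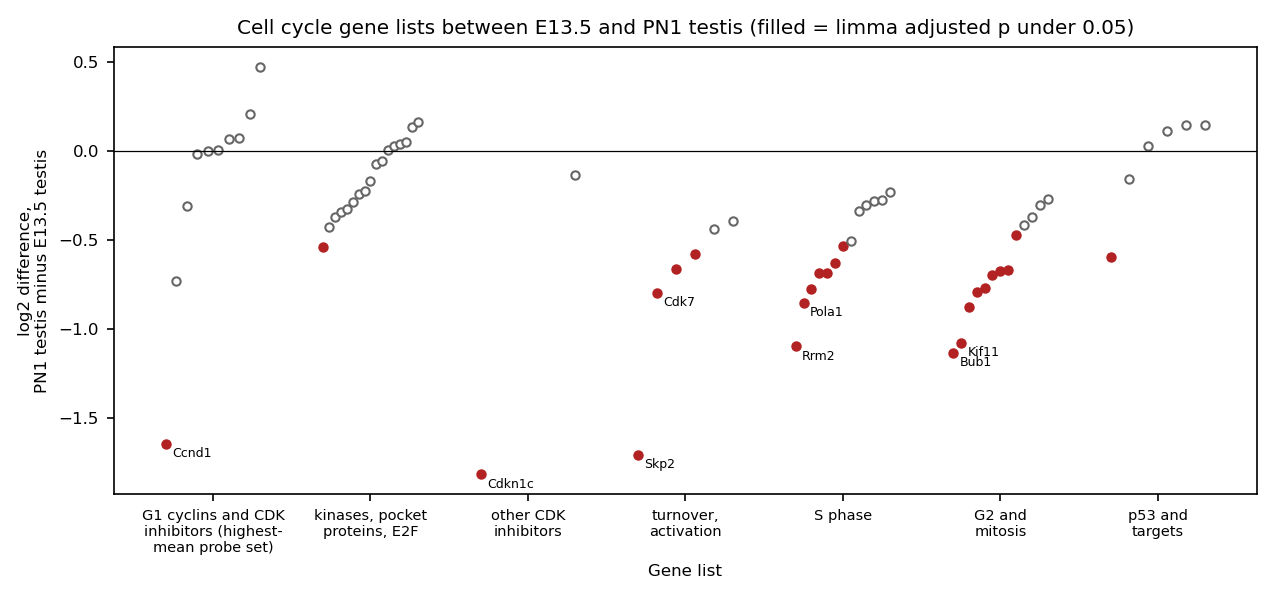
Log2 difference between PN1 and E13.5 testis (vertical axis) of each tested gene in the G1 set (main probe set of each) and 6 other cell cycle lists (horizontal axis), with genes of a list spread sideways by rank and filled points at a limma adjusted p under 0.05. In the G1 set Ccnd1 alone is filled, at -1.64, while 9 of 13 G2 and mitosis genes are.

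Likeness of pattern was measured for the members whose main probe set ranged over at least 1 log2 unit in the 6 arrays: Ccnd1 (2.23), Ccne2 (1.33) and Ccnd2 (1.03). Among 2287 other genes with such a range, the smallest root mean square difference from Ccnd1 was that of Foxp2 (0.197, r = 0.977), then Basp1 (0.228, r = 0.976) and Foxd1 (0.242, r = 0.977). The nearest to Ccnd2 were Palm (0.0606, r = 0.984), Sstr5 (0.0824, r = 0.964) and Med6 (0.105, r = 0.944). The nearest to Ccne2 were Apool (0.110, r = 0.980), Ube2d1 (0.134, r = 0.959) and Cpeb2 (0.134, r = 0.972). All genes were read on the same 6 arrays, from 3 tissues that differ in their cell type markers, and these are descriptions without a test.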

How the data were processed

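Probe set values were used as the authors deposited them, as intensity on a linear scale, 1 column per array and 45101 probe sets, 64 of them controls; the summary method is not given in the sources used here, and the strain, tissue and pooling are as per the labels. Symbols came from the platform annotation: 34958 probe sets carry 1 symbol, 932 several and 9211 none. Values under the 25th percentile of an array were set to it, and log2 values were centred on each array's median over non-control probe sets. The 24713 probe sets that exceeded the median on 2 or more arrays were fitted over 6 arrays with tissue and strain as terms, using lmFit and eBayes (with trend) of limma 3.58.1 (R 4.3.3), and p-values were adjusted by Benjamini-Hochberg. Replication comes from the 2 strains of a tissue, so the spread is how far strain differences vary between tissues (2 residual degrees of freedom), and the two-sided p-values measure the spread between these pools only. The fit was tested on simulated data. Within a tissue, with 1 array per strain, a 2-fold difference was counted without a test where the higher array lay above its median. The members and gene lists were chosen with earlier results of these data known. The text gives every member, up to 4 genes of smallest p in each list and, for members ranging over 1 log2 unit, the 3 genes nearest in pattern; genes are shown by the probe set with the highest mean. Promoter windows of 250 bases are from RefSeq (GRCm38.p6). Alternatives were other scalings, floors, filters and fold limits, robust or trend-free limma, fits without a block or on the testis arrays alone, and leaving out arrays. Tables and plots used Python 3.11.15, numpy 2.4.6, pandas 2.3.3 and matplotlib 3.10.9.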

Additional observations from a re-analysis of the deposited data

Results flagged for a closer look

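After centring, the strain difference ran in opposite directions in PN1 testis and embryo on all 7 Ccnd2 probe sets. The 3 with the largest gap between these tissues were flagged. The PN1 difference minus the embryo difference was -2.51 log2 units for 1448229_s_at, -3.26 for 1416124_at and -1.93 for 1416123_at. With 1 array per strain and tissue, this difference between tissues was not tested, and the last pair rests on a value at the floor.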

How the results depend on the processing

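Of 83 counts of members under the alternatives 69 were within 1.5 times the main count. Many of these 69 were 0 in both, as in every strain fit across tissues, and do not bear on the other counts. Leaving out an array in turn moved the calls between PN1 and E13.5 testis, 4 in the full fit, between 1 and 11, in both directions, those between E13.5 testis and embryo from 3 to 0 each time, and those between PN1 testis and embryo, 5 in full, between 3 and 11. Without strain as a block 1 probe set was called between E13.5 testis and embryo. The 2-fold count in PN1 testis, 5, became 2 at 3-fold, and that in the embryo, 0, became 3 at 1.5-fold. Of 192 alternative values of called members 163 were counted as keeping the call, 29 lost it and 0 changed sign. A probe set removed by the filter at the 75th percentile was not counted as lost. Cdkn1a 1421679_a_at and Ccne2 1422535_at were removed so, and the 2-fold count in PN1 testis was 4 under that filter. The Ccnd2 strain difference in PN1 testis was -0.90 for 1416122_at under quantile normalization and -0.58 for 1416123_at with the floor at the 40th percentile, both under 2-fold. Over all probe sets the strain calls, 3 in full, were 6 as deposited, 7 with robust estimation, 0 without tissue as a block, and 0, 85 and 0 without the E13.5 testis, PN1 testis or embryo pair. The labels give no replicate numbers beyond 1 pool per group, so replicates could not be paired. Pairing in the fits was by strain for the tissue differences and by tissue for the strain differences. Intensities near the floor hold no order, which limits 1416124_at, 1416123_at and 1419497_at.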
